A study of Mus musculus with 11 samples.

Results

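Transcripts of 9 complement genes were followed in the mouse kidney: the 3 chains of C1q (C1qa, C1qb and C1qc), the components C2, C3 and C4b, complement factor B (Cfb), and the anaphylatoxin receptors C3ar1 and C5ar1. They were taken by gene symbol and are 9 of the 25677 genes listed in the count and FPKM tables, and each was measured in all 11 kidneys. Their counts together made up 0.0564% ± 0.00247 (SD, n = 3) of all counted reads in the control kidneys, 0.182% ± 0.0490 (SD, n = 4) in untreated lupus-prone kidneys and 0.151% ± 0.0196 (SD, n = 4) in kidneys of treated lupus-prone mice.

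The Ctr group was 3 female C57BL/6J mice, labelled C57B6. The Lpr group was 4 female MRL/lpr mice without treatment, a strain that is homozygous for a Fas mutation and develops a lupus-like nephritis on its MRL background. The DNase group was 4 female MRL/lpr mice given DNase I, an enzyme that digests DNA outside cells, by daily intraperitoneal injection from week 17 until they were killed at 21 weeks, the age of all 11 mice. No MRL mice without the Fas mutation were among the samples, so strain and disease cannot be told apart in a comparison with Ctr, and an injected vehicle for the Lpr mice is not given in the sources used here. Each library came from the kidney of 1 mouse, so the spread within a group is between mice. The libraries held 33469858 to 38460873 counted reads, and the members' own counts ran from 27 for C5ar1 in a Ctr kidney to 25713 for C3 in an Lpr kidney. In whole kidney, more cells of a type and more RNA per cell cannot be told apart.

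Complement is a cascade of proteins that tags and damages its targets, and it is central to lupus nephritis, where immune complexes lodge in the glomerulus. In the classical pathway C1q binds immune complexes and, through its serine proteases, cleaves C4 and C2 to form a convertase that splits C3. Factor B joins C3b to make the convertase of the alternative pathway, which amplifies the deposit, and the fragments C3a and C5a act on the receptors encoded by C3ar1 and C5ar1 on myeloid cells. Much of the plasma supply comes from liver, whereas C1q is made mainly by macrophages and dendritic cells, and renal tubular and mesangial cells can make C3, C4 and factor B themselves.

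Promoter windows are shown for 3 members, because 2 of them encode chains of 1 protein and moved together and the third encodes the component at which the pathways meet. Each window runs from 250 bases before to 50 after the start of the gene in RefSeq (GRCm38.p6), on the gene's strand, which is the minus strand in all 3, and capitals mark a match to a searched motif.
C1qb, chr4:136886151-136886450: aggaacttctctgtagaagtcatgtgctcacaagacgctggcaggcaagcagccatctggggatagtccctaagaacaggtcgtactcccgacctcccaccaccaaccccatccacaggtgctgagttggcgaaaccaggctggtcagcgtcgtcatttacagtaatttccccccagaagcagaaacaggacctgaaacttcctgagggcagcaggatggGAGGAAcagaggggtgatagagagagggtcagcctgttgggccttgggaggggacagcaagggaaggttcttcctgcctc
C1qc, chr4:136892865-136893164: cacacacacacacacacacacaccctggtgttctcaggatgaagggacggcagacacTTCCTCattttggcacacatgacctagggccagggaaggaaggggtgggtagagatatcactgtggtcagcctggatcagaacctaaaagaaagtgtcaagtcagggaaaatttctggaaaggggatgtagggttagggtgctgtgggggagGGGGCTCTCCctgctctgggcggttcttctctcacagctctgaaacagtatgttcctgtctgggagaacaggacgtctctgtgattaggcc
C3, chr17:57228087-57228386: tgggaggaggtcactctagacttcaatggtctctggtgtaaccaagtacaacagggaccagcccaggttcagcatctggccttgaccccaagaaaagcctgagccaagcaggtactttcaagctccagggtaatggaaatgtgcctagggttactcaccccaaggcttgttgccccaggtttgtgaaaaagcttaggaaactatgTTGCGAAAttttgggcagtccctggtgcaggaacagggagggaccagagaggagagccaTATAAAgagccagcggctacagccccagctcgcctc
The capitals in C1qb are the PU.1 core (GAGGAA) at position -30, with the first base of the gene at 1. In C1qc they are the same core on the other strand at -193 and a kappaB consensus at -41. C3 held a C/EBP motif (TTGCNNAA) at -45 and the letters of a TATA box (TATAAA) at 15, which is after the annotated start of the gene.

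RefSeq windows matched 5 of the 9 members (C1qb, C1qc, C3, C3ar1 and C5ar1), and 6 motifs were searched on both strands. The PU.1 core was in 2 of the 5 and in 28.3% of the 32851 mouse promoter windows of the same length. The kappaB consensus was in 1 of 5 against 4.51% of all windows, the C/EBP motif in 1 of 5 against 10.8%, and the TATA box in 2 of 5 (C3 and C3ar1) against 13.6%. An interferon-stimulated response element core (GAAANNGAA) was found on the other strand of C5ar1 at -66, against 8.56% of all windows, and the GAS motif (TTCNNNGAA) was in 0 of 5 against 8.30%. The ISRE core and the GAS motif can overlap, and a match describes letters in the window and not a bound factor.

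The members lie on 4 chromosomes, by the GENCODE M21 annotation of GRCm38, the assembly that mm10 in the labels stands for, and all are on the minus strand. C1qb (chr4:136880129-136886187), C1qc (chr4:136889804-136893065) and C1qa (chr4:136895917-136898803) form 1 cluster, with 9729 bp between C1qb and C1qa. C4b (chr17:34728380-34743882), Cfb (chr17:34856374-34862518) and C2 (chr17:34862604-34898265) lie in the major histocompatibility region, where 85 bp separate Cfb from C2. C3 is further along the same chromosome (chr17:57203970-57228136), C3ar1 is at chr6:122847138-122856161 and C5ar1 at chr7:16246743-16259540.

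Some of these counts have an uncertain gene of origin. The C4b transcript is 96.0% identical to that of its neighbour C4a over its whole length, and C4a is not among the listed genes. A read-through gene, Gm20547, which is not listed either, has 100% identity with 62.5% of the C2 transcript and 81.7% of the Cfb transcript. C2 also overlaps Zbtb12 on the opposite strand, and whether the counting used strand is not given in the sources used here. How far reads were shared among these genes was not tested.

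Levels between genes were compared as FPKM, the count scaled by transcript length and library size. Cfb was the most abundant member of the Ctr kidneys, at 106 ± 13.5 FPKM (SD, n = 3), and all 3 Ctr kidneys exceeded every value of the next gene, C3, at 25.6 ± 11.8 FPKM. C3, C1qb, C1qa, C1qc and C2 followed with means between 25.6 and 18.9 FPKM, and each overlapped the next in that order. C4b (1.61 FPKM) lay apart below them, and C3ar1 (0.523 FPKM) and C5ar1 (0.349 FPKM) overlapped at the bottom.

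The order was different in the MRL/lpr kidneys, where C1qa led. In Lpr its FPKM was 257 ± 82.8 (SD, n = 4), followed by C1qb (187), C1qc (174), Cfb (140.2) and C3 (83.6), each overlapping the next. C2 (44.8 FPKM) and C4b (30.8 FPKM) overlapped each other below C3, and C3ar1 (4.90 FPKM) and C5ar1 (2.07 FPKM) came last without overlap. DNase kidneys had C1qa at 180.3 ± 60.5 FPKM (SD, n = 4), then Cfb (154), C1qb (141), C1qc (136), C3 (69.0), C2 (34.1), C4b (19.0), C3ar1 (4.80) and C5ar1 (1.24), where the first 4 overlapped their neighbours and the others stood apart from one another.

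To find how the lupus-prone kidneys differed from the controls, the Lpr and Ctr libraries were compared with edgeR's quasi-likelihood test, with p-values adjusted over 16074 genes by Benjamini-Hochberg, and a gene is said to have risen or fallen when its adjusted p is below 0.05. Of the 9 members, 8 rose in Lpr and 0 fell, where 10.2% of all genes tested passed in either direction and 7.27% rose. The study's further threshold, an absolute log2 fold change above 2, was passed by 6 members (C1qa, C1qb, C1qc, C4b, C3ar1 and C5ar1) and by 5.78% of all genes. All 4 Lpr kidneys lay outside the range of the 3 Ctr kidneys for 8 of 9 members, which was so for 25.6% of genes tested. The members' median log2 fold change was 2.96, and that of all genes was 0.027.

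**Figure D1:**
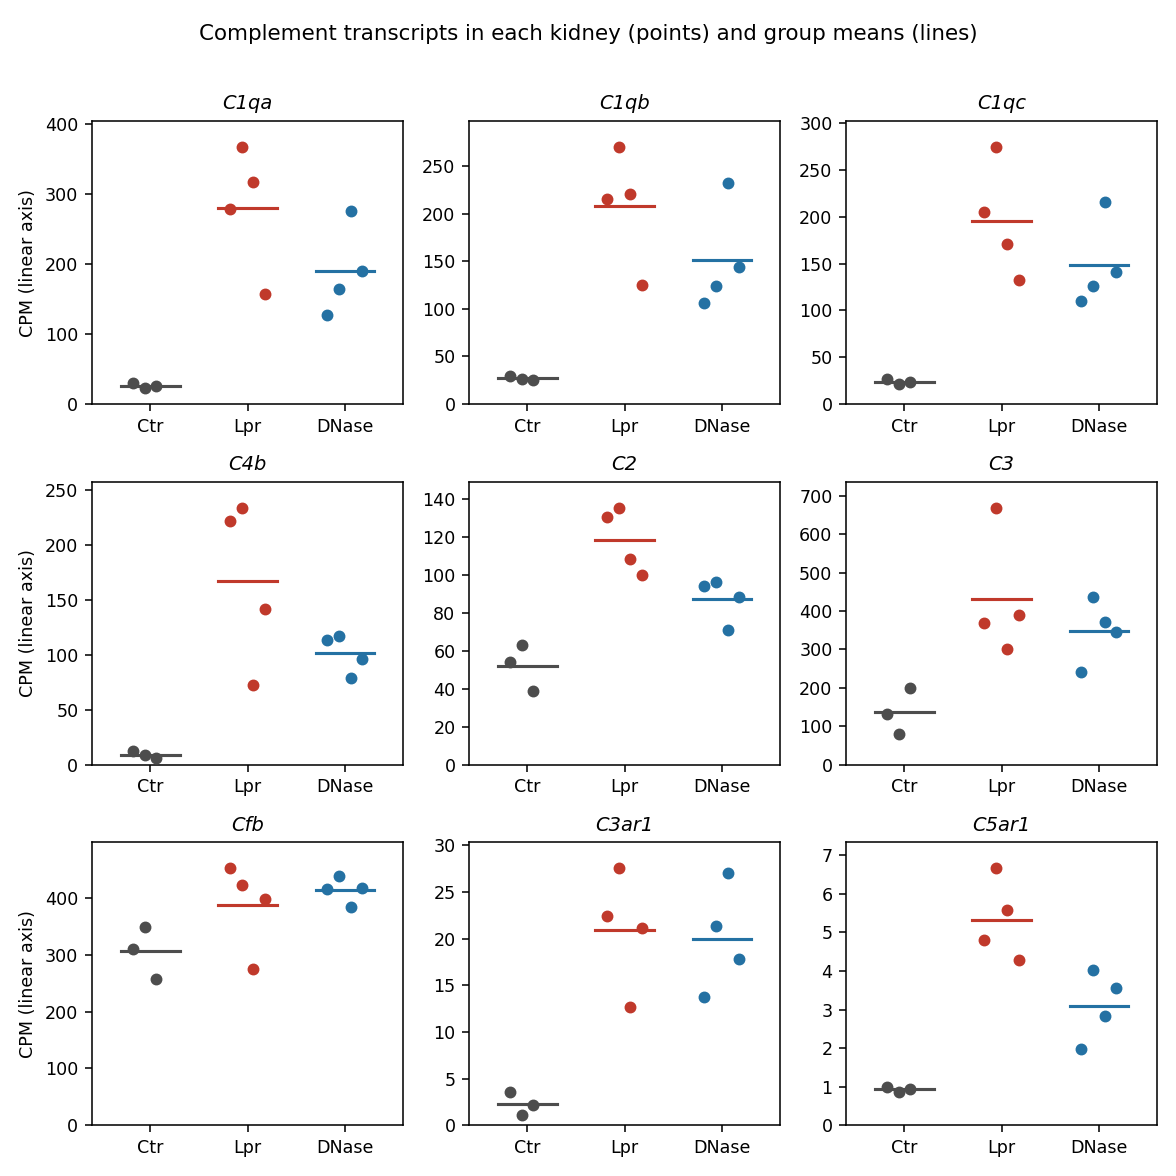
CPM (counts scaled to library size, with TMM factors) of the 9 complement members in each kidney, on linear axes that start at 0, with 1 point per mouse and a line at the group mean for Ctr (n = 3), Lpr (n = 4) and DNase (n = 4). The Lpr and DNase points lie above all Ctr points in every panel except that of Cfb, where the lowest Lpr kidney, at 275 CPM, falls within the Ctr range.

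The C1q chains form the recognition molecule of the classical pathway. C1qa was at 30.0, 22.2 and 25.6 CPM in the Ctr kidneys (replicates 1 to 3), at 279, 367, 316 and 157 CPM in Lpr (replicates 1 to 4) and at 127, 165, 275 and 190.3 CPM in DNase (replicates 1 to 4). The lowest MRL/lpr kidney, DNase replicate 1, lay well above the highest control, and the Lpr and DNase ranges overlapped widely. C1qb stood at 29.0, 26.4 and 25.1 CPM in Ctr, 215, 270.2, 220.4 and 125 CPM in Lpr and 106, 123, 232 and 144 CPM in DNase. C1qc was at 26.2, 21.8 and 23.5 CPM in Ctr, 205, 275, 171 and 132 CPM in Lpr and 110.2, 126, 215 and 141 CPM in DNase. The same kidneys were highest in all 3 chains, replicate 2 among Lpr and replicate 3 among DNase, and DNase replicate 1 was lowest of the MRL/lpr kidneys.

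Between Lpr and Ctr, C1qa rose with a log2 fold change of 3.44 (SE 0.32, 95% CI 2.71 to 4.18, adjusted p = 6.08e-04). C1qb rose by 2.96 (SE 0.28, adjusted p = 6.11e-04) on the log2 scale and C1qc by 3.05 (SE 0.28, adjusted p = 5.60e-04), so the 3 chains rose 7.80-fold to 10.9-fold. Leaving out each library in turn kept all 3 past the threshold.

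**Figure D2:**
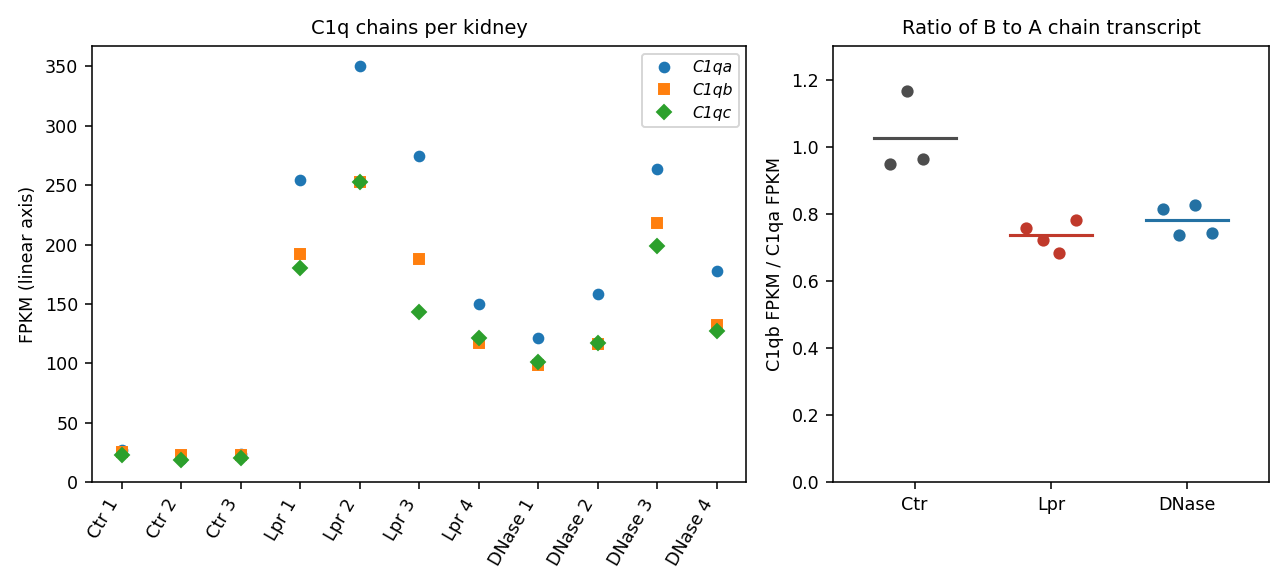
Left, FPKM of C1qa, C1qb and C1qc in each kidney on a linear axis, and right, the ratio of C1qb to C1qa FPKM per kidney with a line at the group mean (Ctr n = 3, Lpr n = 4, DNase n = 4). The chains are near 1 to 1 in Ctr, where the ratio averages 1.03, and C1qa stands above the other chains in the MRL/lpr kidneys, where it averages 0.736 in Lpr and 0.780 in DNase.

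The chains of C1q assemble in equal numbers, and their transcripts were close to equal per length in the control kidneys. The ratio of C1qb to C1qa FPKM was 0.948 to 1.17 in Ctr, 0.683 to 0.782 in Lpr and 0.735 to 0.827 in DNase. No Ctr kidney overlapped an MRL/lpr kidney in this ratio, which was not tested. C1qc to C1qa was 0.841 to 0.948 in Ctr, 0.522 to 0.813 in Lpr and 0.716 to 0.836 in DNase. Here Ctr stood apart from DNase by a narrow margin only. Both ratios are taken over C1qa, so they are not independent, and this one was not tested either.

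C4b and C2 supply the fragments of the classical C3 convertase. C4b was at 12.5, 8.45 and 6.41 CPM in Ctr, 222, 234, 72.4 and 141 CPM in Lpr and 113, 117, 78.6 and 96.4 CPM in DNase. The lowest MRL/lpr kidney, Lpr replicate 3, still exceeded the highest control, and its value set the lower end of a wide Lpr range that held all 4 DNase kidneys. C4b rose in Lpr over Ctr with a log2 fold change of 4.21 (SE 0.47, 95% CI 3.13 to 5.29, adjusted p = 0.00115), an 18.4-fold difference and the largest among the members. C2 was at 54.2, 63.2 and 38.9 CPM in Ctr, 131, 135, 108 and 100.005 CPM in Lpr and 94.3, 96.2, 70.9 and 88.4 CPM in DNase, so that its groups formed 3 ranges that did not overlap. C2 rose in Lpr over Ctr with a log2 fold change of 1.20 (SE 0.21, 95% CI 0.72 to 1.68, adjusted p = 0.00793), or 2.30-fold.

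C3 is the component at which the pathways meet, and Cfb encodes the protease subunit of the alternative convertase. C3 was at 133, 78.5 and 199.7 CPM in Ctr, 368, 669.5, 301 and 391 CPM in Lpr and 241, 437, 370.3 and 345 CPM in DNase. The Ctr kidneys were spread widely below all MRL/lpr kidneys, and Lpr replicate 2 stood above all others. C3 rose in Lpr over Ctr with a log2 fold change of 1.67 (SE 0.38, 95% CI 0.80 to 2.54, adjusted p = 0.0266), and this call was lost without Ctr replicate 1 (adjusted p = 0.117), Ctr replicate 2 (0.0903) or Lpr replicate 2 (0.0527). Cfb was at 310.5, 349 and 258 CPM in Ctr, 452, 423, 275 and 398 CPM in Lpr and 415, 439, 383 and 417 CPM in DNase. It was thus abundant in the control kidney already, and it was the 1 member that did not pass, with a log2 fold change of 0.35 (SE 0.21, 95% CI -0.13 to 0.83, adjusted p = 0.402). Without Lpr replicate 3, the lowest of its group, the Cfb value was 0.48 (adjusted p = 0.0375).

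The receptors were the least abundant members. C3ar1, the receptor for C3a, was at 3.61, 1.12 and 2.22 CPM in Ctr, 22.4, 27.5, 12.6 and 21.2 CPM in Lpr and 13.8, 21.3, 27.0 and 17.8 CPM in DNase. Both MRL/lpr groups lay far above Ctr and covered nearly the same range as each other. C3ar1 rose in Lpr over Ctr with a log2 fold change of 3.18 (SE 0.44, 95% CI 2.18 to 4.18, adjusted p = 0.00258). C5ar1, the main receptor for C5a on neutrophils and macrophages, was at 0.998, 0.861 and 0.929 CPM in Ctr, from 27 to 37 counts per kidney. It reached 4.81, 6.67, 5.58 and 4.28 CPM in Lpr and 1.98, 4.04, 2.82 and 3.55 CPM in DNase. The 3 groups formed separate ranges, with Lpr highest, and C5ar1 rose in Lpr over Ctr with a log2 fold change of 2.53 (SE 0.29, 95% CI 1.88 to 3.18, adjusted p = 0.00116).

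**Figure D3:**
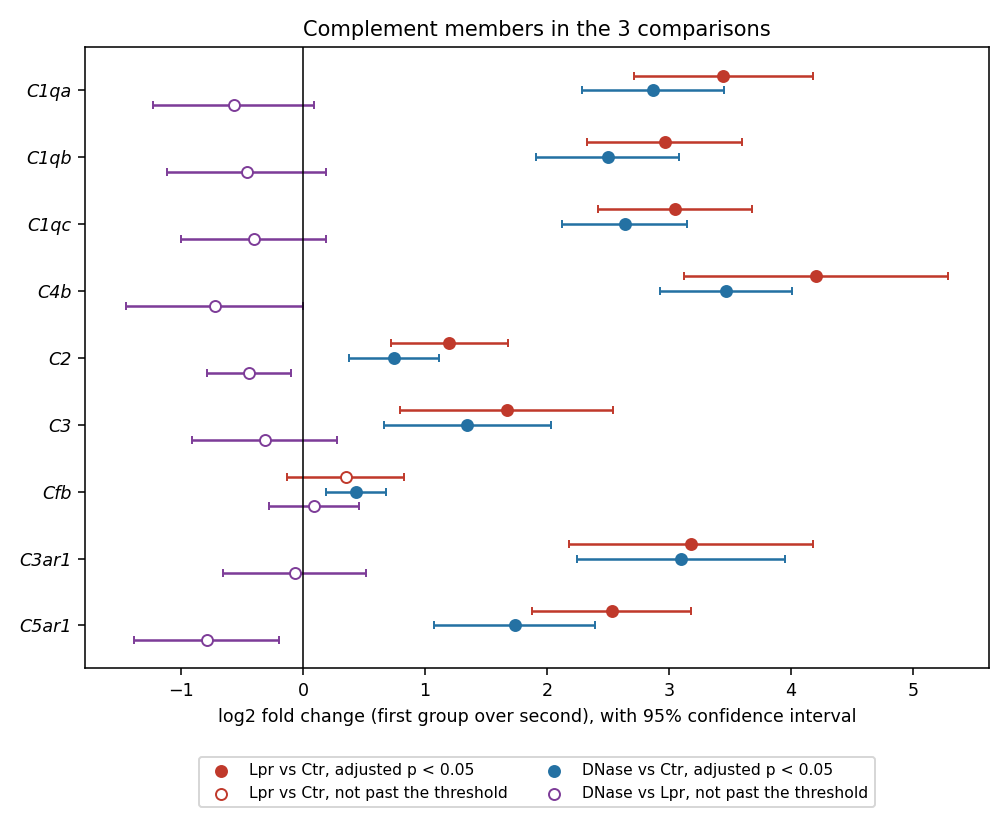
Log2 fold change of each member in Lpr vs Ctr (red), DNase vs Ctr (blue) and DNase vs Lpr (purple), where filled points passed an adjusted p of 0.05 (edgeR). Bars are 95% confidence intervals derived from the F statistic of the test. Filled points lie between 0.44 and 4.21, and the DNase vs Lpr points are all open, between -0.79 and 0.093.

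The effect of DNase I was read from DNase against Lpr, both MRL/lpr groups of 4. None of the members passed the test (0 of 9), and neither did any other of the 15832 genes tested, so that 0% of genes were called. At an unadjusted p below 0.05 there were 3 members and 886 genes, and DESeq2 called 0 members and 17 genes. Values were lower in DNase for 8 of 9 members, with a median log2 fold change of -0.44 beside -0.020 over all genes, of which 7455 had a higher value in DNase. Only C2 and C5ar1 had no overlap between the groups (2 of 9, beside 3.76% of genes tested).

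C5ar1 was 3.10 ± 0.897 CPM in DNase against 5.33 ± 1.04 CPM in Lpr (SD, n = 4 each). Its log2 fold change was -0.79 (95% CI -1.38 to -0.19, adjusted p = 0.820, edgeR). For C2 the value was -0.44 (95% CI -0.79 to -0.099, adjusted p = 0.820, edgeR). C4b gave -0.73 (95% CI -1.45 to -0.00069, adjusted p = 0.854, edgeR), although its DNase values all lay within the Lpr range. These 3 genes had the smallest p of the members, and none is a call.

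Between DNase and Lpr the log2 fold change was -0.57 (SE 0.30, adjusted p = 0.854) for C1qa, -0.46 (SE 0.29, adjusted p = 0.854) for C1qb and -0.41 (SE 0.27, adjusted p = 0.854) for C1qc. As a fraction of the Lpr level the 95% CI was 0.426 to 1.07 for C1qa and 0.463 to 1.14 for C1qb. Without DNase replicate 3 the value was -0.74 for C1qb and -0.64 for C1qc, and without Lpr replicate 2 it was -0.21 for C1qc. C3 gave -0.31 (95% CI -0.91 to 0.28), C3ar1 -0.070 (-0.66 to 0.52) and Cfb 0.093 (-0.27 to 0.46). Without Lpr replicate 2 the C3 value was -0.032, and without DNase replicate 1 it was -0.17. The sign of Cfb turned without Lpr replicate 3 (-0.043), and that of C3ar1 turned without DNase replicate 1 (0.072) or Lpr replicate 2 (0.082).

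Compared with Ctr, the treated kidneys had all 9 members raised, where 21.7% of 16100 genes passed in either direction and 13.1% rose. An absolute log2 fold change above 2 was reached by 5 members (C1qa, C1qb, C1qc, C4b and C3ar1) beside 6.01% of genes, and the groups did not overlap for 9 of 9 members beside 31.9% of genes. The DNase vs Ctr and Lpr vs Ctr comparisons share the 3 Ctr kidneys, so they are not independent, and their values are given side by side. C1qa rose by 2.87 (SE 0.26, adjusted p = 6.82e-05) in DNase and by 3.44 in Lpr, both over Ctr on the log2 scale. For C4b the values were 3.47 (SE 0.24, adjusted p = 1.55e-05) in DNase and 4.21 in Lpr, for C3ar1 3.10 (SE 0.38, adjusted p = 3.81e-04) and 3.18, and for C5ar1 1.73 (SE 0.29, adjusted p = 0.00255) and 2.53.

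C1qb and C1qc rose in DNase over Ctr by 2.50 (SE 0.26, adjusted p = 1.47e-04) and 2.64 (SE 0.23, adjusted p = 5.32e-05), C2 by 0.75 (SE 0.16, adjusted p = 0.0103) and C3 by 1.35 (SE 0.30, adjusted p = 0.0120). Cfb, which did not pass in Lpr, rose by 0.44 (SE 0.11, adjusted p = 0.0194) in DNase, where the 4 kidneys lay close together at 414 ± 23.0 CPM (SD, n = 4) against 387 ± 77.7 CPM in Lpr. Its call was lost without Ctr replicate 1 (adjusted p = 0.0684), Ctr replicate 3 (0.0626) or DNase replicate 2 (0.0518) and with all 3 groups in 1 fit (0.158). The direct comparison of DNase with Lpr showed no call for Cfb, so the 2 results do not show that the groups differ.

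One library stood apart in a way that bears on the longer members. In Lpr replicate 3 the log2 CPM, relative to the mean of all kidneys, fell by 0.43 per doubling of gene length, whereas the other 10 kidneys had slopes between -0.044 and 0.084. This kidney was the lowest of the Lpr group for C4b, C3, C3ar1 and Cfb, whose transcripts in the tables are 2769 to 5481 bp long, and was not the lowest for C1qa, C1qb, C1qc, C2 or C5ar1, at 1082 to 2644 bp. Without it the Lpr vs Ctr log2 fold change was 4.45 for C4b, 1.80 for C3 and 3.37 for C1qa, and 9 of 9 members rose. Without it DNase vs Lpr gave -0.98 for C4b (adjusted p = 0.270), -0.46 for C3 and -0.77 for C5ar1, with 0 of 9 members called.

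The wider pathway was read from a list of 59 complement genes, the 9 members among them, of which 55 were in the tables. In Lpr over Ctr 18 genes of 44 tested rose and 1 fell, the 8 members included, beside 7.27% of all genes that rose and 10.2% that passed either way. The median log2 fold change of these 44 was 0.74 beside 0.027 over all genes. Outside the members, 10 of 35 tested rose and 1 fell, with a median of 0.50. DNase over Ctr had 19 that rose and 3 that fell of 44 tested, beside 13.1% of all genes that rose and 21.7% that passed either way. Of the 35 tested outside the members, 10 rose and 3 fell there. Between DNase and Lpr 0 of 43 were called by edgeR, with 7 at an unadjusted p below 0.05 and a median of -0.31. Without the members 0 of 34 were called, 4 had an unadjusted p below 0.05 and the median was -0.14. All 9 tested genes of classical initiation rose in both MRL/lpr groups over Ctr, the members C1qa, C1qb, C1qc, C2 and C4b among them. The others were C1ra, C1s1 and their near copies C1rb and C1s2. Of the 7 membrane regulators tested 0 passed in Lpr and 1 fell in DNase, which is near the background of 10.2% and 21.7%, and the difference between steps was not tested.

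**Figure D4:**
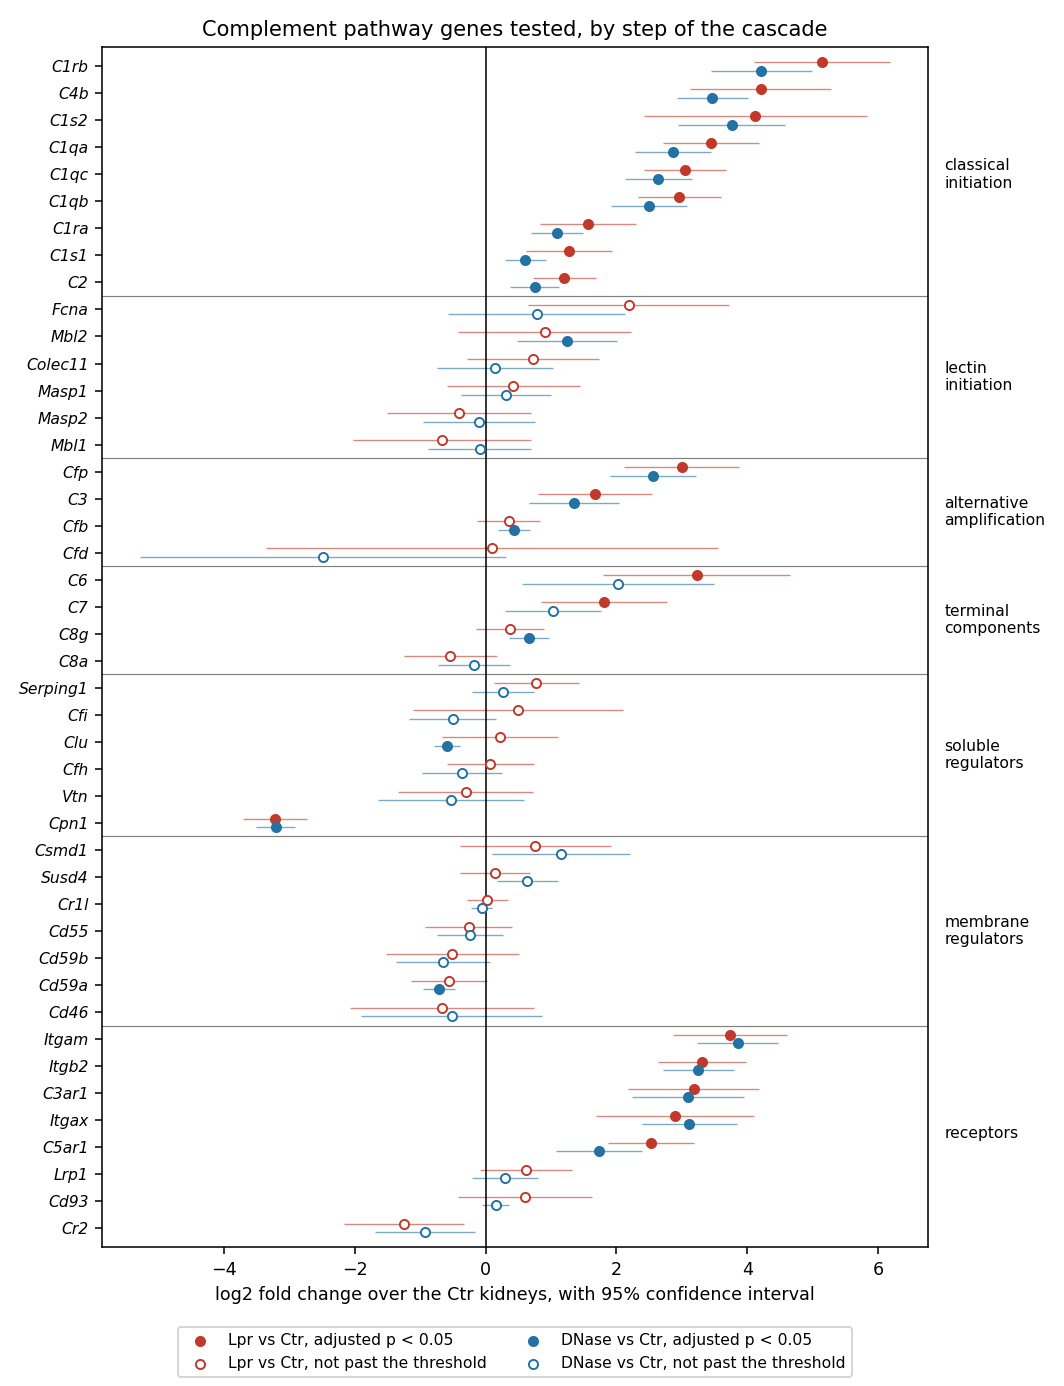
Log2 fold change over Ctr with 95% confidence interval for the 44 complement pathway genes tested, by step of the cascade, in Lpr (red) and DNase (blue), where filled points passed an adjusted p of 0.05 (edgeR). All points of classical initiation are filled and to the right. Those of membrane regulators lie on both sides of 0 with 1 filled, and Cpn1 stands alone at -3.22 and -3.21.

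C1r and C1s are the proteases bound to C1q. C1ra rose in Lpr over Ctr by 1.56 (SE 0.32, adjusted p = 0.0169) and C1s1 by 1.28 (SE 0.29, adjusted p = 0.0240), from 21.3 and 29.1 CPM in Ctr. Their near copies C1rb and C1s2, at 0.257 and 0.332 CPM in Ctr, rose by 5.15 (SE 0.46, adjusted p = 5.48e-04) and 4.12 (SE 0.75, adjusted p = 0.00924). C1ra and C1rb share 97.9% and C1s1 and C1s2 96.0% of bases where they align, so the split of reads within each pair is uncertain. In DNase over Ctr the values were 1.09 for C1ra, 0.61 for C1s1, 4.22 for C1rb and 3.76 for C1s2, and all 4 rose.

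Properdin, encoded by Cfp, stabilizes the alternative convertase. It was at 2.99, 2.17 and 4.38 CPM in Ctr, 34.1, 20.3, 31.9 and 14.6 CPM in Lpr and 12.2, 18.7, 23.5 and 20.8 CPM in DNase, and rose by 3.00 (SE 0.39, adjusted p = 0.00199) in Lpr over Ctr and by 2.56 (SE 0.29, adjusted p = 2.46e-04) in DNase over Ctr. Of the terminal components, which build the membrane attack complex, C6 rose by 3.23 (SE 0.63, adjusted p = 0.0126) and C7 by 1.81 (SE 0.42, adjusted p = 0.0281) in Lpr over Ctr. Their values in DNase over Ctr were 2.03 (SE 0.65, adjusted p = 0.0544) and 1.03 (SE 0.33, adjusted p = 0.0513), which did not pass. C8g, a chain of C8, rose in DNase over Ctr by 0.66 (SE 0.13, adjusted p = 0.00710). Between DNase and Lpr 0 of 4 terminal components tested passed, so these calls do not show that the groups differ. The gene of C5, Hc, had 4 counts or fewer in every kidney. Of the lectin pathway genes 0 of 6 passed in Lpr, and 1 of 6 in DNase, where Mbl2, a mannose-binding lectin with a mean of 0.914 CPM in DNase, rose by 1.25 (SE 0.34, adjusted p = 0.0277). These counts are near the shares of all genes that passed, 10.2% and 21.7%.

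Of 8 receptor genes tested, the members included, 5 rose in Lpr over Ctr, beside 7.27% of all genes that rose. Besides C3ar1 and C5ar1 these were 3 integrin chains. CR3 and CR4 are integrins that bind a C3b fragment and are made of the alpha chains Itgam or Itgax with Itgb2. Itgam rose by 3.74 (SE 0.38, adjusted p = 7.26e-04), Itgb2 by 3.31 (SE 0.30, adjusted p = 5.48e-04) and Itgax by 2.89 (SE 0.53, adjusted p = 0.00943) in Lpr over Ctr. The DNase over Ctr values were 3.85, 3.25 and 3.11, and all 3 rose. DNase vs Lpr values for these integrins were 0.13, -0.044 and 0.23, with no call.

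Of 6 soluble regulators tested in Lpr over Ctr, 0 rose and 1 fell, beside 10.2% of all genes that passed in either direction. That gene was Cpn1, the catalytic chain of carboxypeptidase N, which inactivates C3a and C5a. Cpn1 was at 132, 162 and 114 CPM in Ctr, 10.7, 16.8, 16.1 and 14.1 CPM in Lpr and 14.7, 12.8, 16.7 and 14.7 CPM in DNase. It fell by 3.22 on the log2 scale in Lpr over Ctr (adjusted p = 2.01e-04), with a DNase vs Lpr value of 0.023. Clu, clusterin, which blocks the terminal complex, and Cd59a, its membrane inhibitor, fell in DNase over Ctr, with -0.59 (SE 0.089, adjusted p = 0.00129) and -0.71 (SE 0.11, adjusted p = 0.00133). They did not pass in Lpr, with 0.22 (SE 0.39, adjusted p = 0.794) and -0.56 (SE 0.25, adjusted p = 0.248). Between DNase and Lpr 0 of 5 soluble and 0 of 7 membrane regulators tested passed, so these calls do not show that the groups differ.

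Markers of macrophages were counted beside the members. Of 13 tested 8 rose in Lpr over Ctr and 9 in DNase over Ctr, beside 7.27% and 13.1% of all genes that rose. Their summed level was 222 to 284 CPM in Ctr, 870.2 to 1623 CPM in Lpr and 654 to 1109.6 CPM in DNase. The 2 most abundant, Lyz2 and Csf1r, rose by 4.00 (SE 0.36, adjusted p = 5.60e-04) and 0.89 (SE 0.22, adjusted p = 0.0382) in Lpr over Ctr. The list's median log2 fold change was 2.33 in Lpr over Ctr and -0.43 in DNase vs Lpr, beside 2.96 and -0.44 for the members. Relative to the mean log2 CPM of the macrophage markers, C1qa was 2.29 to 2.73 higher in Ctr, 2.98 to 4.57 in Lpr and 3.42 to 4.35 in DNase, without overlap between Ctr and the MRL/lpr kidneys. Over the 8 MRL/lpr kidneys C1qa and Csf1r had r = 0.41 and rho = 0.48 (exact permutation p = 0.306 and 0.243, adjusted 0.450 and 0.405 over 15 pairs), with r = -0.40 without the 2 kidneys farthest from the median of C1qa. The part of macrophage number in the members' values was not tested.

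Other leukocyte lists were counted in the same way. In Lpr over Ctr 7.27% of all genes rose and 10.2% passed either way. Neutrophil markers were sparse, 1 of 10 staying under 10 counts in every kidney, with a summed level of 2.85 to 6.93 CPM in Ctr, 16.1 to 46.2 CPM in Lpr and 15.1 to 27.3 CPM in DNase, and 3 of 6 rose in Lpr over Ctr, Csf3r by 3.97 and S100a9 by 2.30 among them. Dendritic cell markers had 4 of 8 that rose, with Itgax (above) and Zbtb46 (-0.073, not past the test) the most abundant. All 7 T cell markers tested rose, Cd8a by 4.31 and Cd4 by 4.25, and 4 of 6 plasma cell markers did, Jchain by 5.12 and Xbp1 by 0.78. Of 6 B cell markers 1 rose, Cd79a by 3.09, with Cd79b at 1.36. Of 5 mast cell markers 0 passed, with Kit at -0.30 and Tpsb2 at 1.61. The B cell and mast cell lists are short, and their counts are near those shares. Between DNase and Lpr 0 markers of any of these lists passed. Vsig4, Itgax, Clu and Cr2 are in a marker list and in the complement list.

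Of 7 hepatocyte genes tested 0 rose and 4 fell in Lpr over Ctr, beside 10.2% of all genes that passed either way. Measured in kidney RNA, these genes do not show how much complement the liver makes. Their summed level was 89.1 to 95.6 CPM in Ctr, 18.3 to 37.6 CPM in Lpr and 19.8 to 24.2 CPM in DNase. In Lpr over Ctr Ttr gave -5.47 (SE 0.52, adjusted p = 6.37e-04) and Fga -0.15 (SE 0.32, adjusted p = 0.836). Kidney markers were present in all libraries. Of 9 proximal tubule markers 0 passed in Lpr over Ctr, with Kap at -0.77 and Slc34a1 at -0.47. The same was so for podocyte (Podxl -0.59), endothelial (Plvap -0.13, Pecam1 -0.14), fibroblast and mesangial (Col3a1 0.94, Col1a2 0.43) and adipocyte lists (Fabp4 0.16, Adipoq -0.23). In lists this short, 0 passing is near the 10.2% of all genes that passed either way. Tubular injury genes had 3 of 8 that rose, beside 7.27% of all genes. The most abundant, Spp1, at 1.76 (SE 0.59, adjusted p = 0.113), and Clu, did not pass. In DNase vs Lpr the tubular injury list was lower for 8 of 8 genes, with a median of -1.41, and the fibroblast and mesangial list for 8 of 8, with a median of -0.57. B cell markers were higher for 7 of 7, with a median of 1.38, and 0 genes of these 3 lists passed.

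Genes induced by interferon gamma, a known inducer of several complement genes, and acute phase genes were counted too. All 12 genes of an interferon gamma list rose in Lpr over Ctr and in DNase over Ctr, beside 7.27% and 13.1% of all genes. Medians of the list were 3.48 and 2.73, and Cd74 and H2-Aa rose by 3.91 and 2.85 in Lpr. In DNase vs Lpr the median of this list was -0.58, with 12 of 12 values lower and 0 called. Of 6 acute phase genes tested 3 rose and 1 fell in Lpr over Ctr, beside 10.2% of all genes that passed either way. Lcn2 rose by 3.92 (SE 1.00, adjusted p = 0.0408) and Socs3 by 2.42 (SE 0.45, adjusted p = 0.0108). Lcn2, at 12.3 to 149 CPM in Lpr, is in the tubular injury list too and is counted in both. The summed level of the acute phase list was 18.7 to 39.9 CPM in Ctr, 51.4 to 249.8 CPM in Lpr and 30.4 to 54.3 CPM in DNase.

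Within the 8 MRL/lpr kidneys, 15 pairs of genes were compared by their log2 CPM with exact permutation tests, two-sided, adjusted over the 15 pairs. The C1q chains went together. Pearson's r was 0.99 for C1qa and C1qb (Spearman's rho 0.90, permutation p = 1.98e-04, adjusted 0.00298, and 0.00456 for rho, adjusted 0.0342). It was 0.96 for C1qb and C1qc, whose promoter windows are given above (rho 0.98, permutation p = 4.22e-04, adjusted 0.00316, and 3.97e-04 for rho, adjusted 0.00595). For C1qa and C1qc it was 0.93 (rho 0.88, permutation p = 0.00179, adjusted 0.00893, and 0.00724 for rho, adjusted 0.0362). Without the 2 kidneys farthest from the median of the first gene the 3 values were 0.98, 0.95 and 0.87, and within each group of 4 kidneys they lay between 0.86 and 1.00.

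The other 12 pairs did not pass. C3 and C3ar1 came closest, with r = 0.79 and rho = 0.79 (permutation p = 0.0141 and 0.0279, adjusted 0.0527 and 0.105), and r = 0.72 without the 2 farthest kidneys. C1qa and C5ar1 had r = 0.70 and rho = 0.76 (permutation p = 0.0496 and 0.0368, adjusted 0.145 and 0.110). Without the 2 kidneys farthest from the median of C1qa r was 0.22. Leaving these out also narrows the range of C1qa, so what the value rested on cannot be told from it. Within Lpr r was 0.89, within DNase 0.33, and without Lpr replicate 3 it was 0.66. Cfb and C4b had r = 0.64 and rho = 0.74 (permutation p = 0.0602 and 0.0458, adjusted 0.145 and 0.115) over all 8 kidneys. Their r was 0.95 once each kidney was taken relative to its group's mean (adjusted permutation p = 0.00360). The centred values were permuted across both groups, so that p is approximate. Uncentred, r was 0.96 within Lpr, 0.91 within DNase and 0.62 over both groups without Lpr replicate 3. C1qa and C3ar1 had r = 0.36 and rho = 0.40 (permutation p = 0.370 and 0.327, adjusted 0.462 and 0.487), with r = 0.84 without Lpr replicate 3 and r = -0.24 without the 2 farthest kidneys. C2 and Cfb, which are neighbours, had r = 0.11 and rho = 0.36 (permutation p = 0.752 and 0.389, adjusted 0.752 and 0.487).

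Among 13167 other genes with a mean of at least 1 CPM in these 8 kidneys, those whose log2 CPM went most closely with a member were listed as a description. They were Slfn2 (Pearson's r = 0.99), Ctss (0.98) and Fxyd5 (0.98) for C1qa. For C3 they were Slc9a9 (0.95), Rhoq (0.95) and Agfg1 (0.95), and for C4b Ttyh2 (0.98), Mcoln1 (0.97) and Pakap (0.97). Those of Cfb were Vps18 (0.99), Rnf123 (0.99) and Erlin2 (0.99), and those of C5ar1 were Ms4a4a (0.96), Stim2 (0.95) and Fez1 (0.95). All r come from the same 8 libraries, which share depth and length effects, and the highest of 13167 values is high by selection.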

How the data were processed

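Kidney RNA of 3 Ctr, 4 Lpr and 4 DNase mice was sequenced as 100 bp paired-end reads, 1 library per mouse. The authors deposited raw counts of reads per gene. They also deposited FPKM, which are the same counts divided by a gene length and by the library total. The submitters' processing notes name fastp, HTSeq, DESeq2, R 3.2.0 and the build mm10. The study's methods credit HTSeq with placing the reads on reference genes. A separate aligner, the annotation and the use of strand are not given in the sources used here. Samples were grouped by their titles, genotypes and treatments, and all columns were used.

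Each pair of groups was compared with edgeR 4.0.16 in R 4.3.3 (filterByExpr, TMM, quasi-likelihood test), on the libraries of the 2 groups, with Benjamini-Hochberg adjustment over all genes tested and a threshold of 0.05. The further threshold of 2 on the absolute log2 fold change is that of the study's methods. CPM values use TMM factors, and log2 CPM a prior count of 2. Pairs of genes were compared over 8 kidneys with exact permutation tests in scipy 1.17.1. Copies were searched with blastn 2.17.0+ among GENCODE M21 transcripts, and promoter windows came from RefSeq (GRCm38.p6). The procedure was tested on simulated data.

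The members, gene lists, motifs and pairs were chosen with earlier results of these data known. The text names all members, every gene of the complement list past the threshold against Ctr, the 2 most abundant genes of each marker or programme list, and for 5 members the 3 genes with the highest r. Results of 1 gene under this rule are not reported here. Hc, Vsig4, Cr2 and Cfd were named beside this rule, after their values were seen. Read depth limits the precision of genes with few counts, C5ar1 in Ctr among them. Intervals cover the spread between the libraries of a fit.

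Alternatives were DESeq2 1.42.0, other scaling factors, no filter on low counts, all groups in 1 fit, the replicate number as a block, limma 3.58.1 on the log2 of FPKM with 1 or 0.1 added (mean FPKM 0.5 or more), and leaving out each library.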

Additional observations from a re-analysis of the deposited data

How the results depend on the processing

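No alternative called a complement member between DNase and Lpr, and none reversed a value in Lpr vs Ctr or DNase vs Ctr. The study's threshold of 2 on the absolute log2 fold change lowered the DNase vs Ctr counts from 9 to 5 members and from 22 to 12 genes of the pathway list. Leaving out each library gave 7 to 9 members in Lpr vs Ctr and 8 to 9 in DNase vs Ctr, and 13 to 21 and 20 to 24 genes of the pathway list. The values that changed sign, in DNase vs Lpr, were Cfb without Lpr replicate 3 (-0.043) and C3ar1 without DNase replicate 1 (0.072) or Lpr replicate 2 (0.082). Over all leave-one-out fits Cfb ranged from -0.043 to 0.17 and C3ar1 from -0.25 to 0.082 there, and the cause was not tested. Of the correlated pairs 3 passed, and 6 once kidneys were centred on their group means, where the permutation p is approximate. With limma on log2(FPKM + 1) the log2 fold changes of C3ar1 and C5ar1 in Lpr vs Ctr were 1.93 and 1.18, since the pseudocount is large beside low FPKM.

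Same-numbered mice did not clearly deviate together: the correlations of their deviations lay between -0.29 and 0.16. A kidney went best with its own number in 1 of 6 cases in Lpr vs Ctr, 3 of 8 in DNase vs Lpr and 0 of 6 in DNase vs Ctr. What the numbers stand for is not given in the sources used here. With so few mice per group this check cannot exclude a step shared by same-numbered mice. With the replicate block, 7 members passed in Lpr vs Ctr, 0 in DNase vs Lpr and 7 in DNase vs Ctr, and 18, 0 and 18 genes of the pathway list. C3 was at an adjusted p of 0.0594 in Lpr vs Ctr and 0.0506 in DNase vs Ctr with the replicate block, and Cfb at 0.0597 in the latter.

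Over all genes, Lpr vs Ctr had 1639 calls, 2515 with DESeq2, 2555 with all groups in 1 fit, 2824 without Lpr replicate 3, and 852, 911 and 915 without Ctr replicates 1, 2 and 3. DNase vs Ctr had 3493 calls (2107 higher), 1889 with all groups in 1 fit, 1869 with the replicate block, 3758 without normalization factors (2767 higher), and 3045 (2258 higher) and 3040 (2264 higher) with limma at the larger and smaller pseudocount. DESeq2 made 17 calls in DNase vs Lpr, where the other settings made 0.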

Other observations

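Factor D, the protease that activates factor B, varied between mice far more than any member. Its gene Cfd, singled out after its values were seen, was at 231, 20.4 and 590.3 CPM in Ctr, 4.66, 14.1, 824 and 349.9 CPM in Lpr and 1.78, 130.0, 9.56 and 58.1 CPM in DNase, and it passed in no comparison. Adipoq, an adipocyte gene, was at 42.1, 3.44 and 73.5 CPM in Ctr, 0.904, 1.87, 72.2 and 59.8 CPM in Lpr and 0.279, 17.9, 1.61 and 9.68 CPM in DNase. The same kidneys were high in both genes, Ctr replicate 3 and Lpr replicates 3 and 4, and the part of adipose tissue in the Cfd values was not tested. Factor B, its substrate, stayed between 258 and 452 CPM in the same 11 kidneys.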
